A study of Homo sapiens with 6 samples.

Results

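First intron regions are the RPB1 and pSer2 RPB1 ChIP-seq regions that lie in the first intron of a transcript, as the authors' annotation of each region states it. They were taken as every listed region annotated as an intron and numbered as intron 1. They numbered 30946 of 271336 regions over the 4 lists. RPB1 is the largest subunit of RNA polymerase II, and pSer2 denotes RPB1 phosphorylated on serine 2 of its C-terminal repeats. The cells were HepG2, a human hepatoma line, either SHP-1 WT or SHP-1 KO. In the KO cells PTPN6, the gene of the tyrosine phosphatase SHP-1, had been targeted with CRISPR. The paper describes lines grown from single cells, so a difference between KO and WT cannot be told apart from a difference between clones. The labels do not say which KO clone was used, or whether the WT cells were untransfected or carried a non-targeting guide. Each antibody and genotype had 1 library, called against the input DNA of its own cells. With single libraries no p-values were computed, and the spread between repeats is unknown.

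The RPB1 list held 5032 first intron regions of 46045 in WT (10.9%, 95% Wilson interval 10.6 to 11.2) and 4275 of 41605 in SHP-1 KO cells (10.3%, 9.99 to 10.6). The pSer2 list held 12316 of 102674 in WT (12.0%, 11.8 to 12.2) and 9323 of 81012 in SHP-1 KO cells (11.5%, 11.3 to 11.7). These intervals, like all others below, cover counting error only. In all 4 lists the share of first intron regions was lower than that of regions in later introns, which was 14.6%, 14.5%, 32.5% and 31.7% in the same order. The read depth of the libraries is unknown, and the number of regions called in a library moves with its depth. PTPN6 itself had no first intron region in any list, so these regions do not test the genotype labels. The defining hepatocyte genes, albumin and HNF4A among them, carried regions of any class: 9 of 9 in RPB1 WT, pSer2 WT and pSer2 KO, and 8 of 9 in RPB1 KO, where APOA1 had none. Markers of blood, neurons, muscle, fibroblasts and endothelium carried regions at 0 to 2 genes of each set in a list, although PECAM1, an endothelial adhesion molecule, had 11 to 22 regions per list.

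The first intron follows the first exon and is usually the longest intron of a gene. Polymerase that has started transcription often pauses shortly after the start site, and once released it enters the first intron as elongating polymerase. Serine 2 of the RPB1 tail is phosphorylated during that passage by the kinases of productive elongation, so pSer2 signal is known to rise along gene bodies while total RPB1 is highest near starts. First introns also hold many enhancers and alternative promoters, at which polymerase is recruited independently of the host gene's start.

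The DNA under the strongest and the most changed first intron regions is shown first, because these sites recur in the comparisons. Each line gives the summit and 50 bases to each side, from the hg38 plus strand, 5′ to 3′, with the coordinates of the window. Capitals mark matches on either strand to any of 14 short motifs listed with the sequence results. The first 4 are among the 6 RPB1 regions with the highest fold enrichment over input in WT cells. PRDM16 is a KO region with no overlapping region in WT cells. GDF15 and TSPEAR-AS2 were higher in SHP-1 KO cells and LINC01135 and SELENOP lower. The windows of these compared regions are centred on the WT summit. At GDF15 and SELENOP that summit lies outside the KO region it was compared with. HS6ST1 and UBE2D2 are pSer2 regions, the former among the strongest in KO and the latter the strongest one found in WT alone.
HIVEP2, chr6:142926993-142927093: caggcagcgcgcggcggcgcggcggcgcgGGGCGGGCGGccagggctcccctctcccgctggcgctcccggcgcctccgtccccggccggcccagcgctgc
CROCC, chr1:16914209-16914309: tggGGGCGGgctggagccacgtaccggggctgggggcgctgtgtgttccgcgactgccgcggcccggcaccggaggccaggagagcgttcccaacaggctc
TEX14, chr17:58659049-58659149: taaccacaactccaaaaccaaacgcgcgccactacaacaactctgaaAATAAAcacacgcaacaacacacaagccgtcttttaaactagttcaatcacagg
THAP4, chr2:241610152-241610252: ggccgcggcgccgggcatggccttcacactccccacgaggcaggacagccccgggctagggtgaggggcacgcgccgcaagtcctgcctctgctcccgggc
PRDM16, chr1:3070855-3070955: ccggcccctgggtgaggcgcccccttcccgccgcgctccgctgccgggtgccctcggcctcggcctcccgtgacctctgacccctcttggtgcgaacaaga
GDF15, chr19:18380357-18380457: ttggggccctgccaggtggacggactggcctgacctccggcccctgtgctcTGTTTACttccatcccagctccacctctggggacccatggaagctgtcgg
TSPEAR-AS2, chr21:44524185-44524285: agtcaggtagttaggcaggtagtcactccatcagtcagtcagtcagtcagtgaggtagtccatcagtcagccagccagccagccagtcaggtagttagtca
LINC01135, chr1:58816469-58816569: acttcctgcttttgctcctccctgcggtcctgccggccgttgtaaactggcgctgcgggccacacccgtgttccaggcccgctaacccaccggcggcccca
SELENOP, chr5:42875839-42875939: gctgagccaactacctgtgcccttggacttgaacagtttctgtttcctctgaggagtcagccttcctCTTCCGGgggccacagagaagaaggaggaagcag
HS6ST1, chr2:128264083-128264183: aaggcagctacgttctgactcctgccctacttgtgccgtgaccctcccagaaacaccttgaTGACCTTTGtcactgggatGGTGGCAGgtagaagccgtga
UBE2D2, chr5:139550526-139550626: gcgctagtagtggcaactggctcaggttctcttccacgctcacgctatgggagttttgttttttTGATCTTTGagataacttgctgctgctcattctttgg

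The HIVEP2 window was 88.1% G and C and held GGGCGG, the core of GC boxes, in 2 overlapping copies. CROCC (75.2%) also held GGGCGG, whereas THAP4 (76.2%) and PRDM16 (75.2%) were as rich in G and C without any of the motifs. By contrast, the TEX14 window was 42.6% G and C. The TSPEAR-AS2 window consisted mainly of a short tandem repeat, in which short reads can be placed ambiguously. The GDF15 window, around the WT summit, held TGTTTAC, a forkhead factor motif.

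Position within the intron differed between the antibodies. Of the first intron regions, 97.3%, 97.4%, 95.6% and 96.3% (RPB1 WT, RPB1 KO, pSer2 WT, pSer2 KO) could be placed in intron 1 of the named transcript in GENCODE release 44, and each of them lay wholly inside that intron. The median distance from the start of the named transcript was 5.38 kb for RPB1 in WT and 4.95 kb in KO, against 10.2 kb and 9.93 kb for pSer2. RPB1 regions were thus concentrated early: 47.5% in WT and 50.3% in KO lay in the first 5 kb, where pSer2 had 27.3% and 27.7%. Beyond 10 kb lay 31.0% and 28.1% of the RPB1 regions and 50.6% and 49.7% of the pSer2 regions. Taken once per region, the length of the intron had a median of 25.6 kb in WT and 25.5 kb in KO for pSer2. For RPB1 it was 16.95 kb and 15.8 kb. An intron with many regions weighs more in these medians. No first intron region lay within 1 kb of the start of its assigned gene, because the authors' annotation gives such regions to the promoter class. Only 4.59%, 5.36%, 3.66% and 3.65% of them had their summit within 1 kb of any transcript start in GENCODE. The host transcript was protein-coding for 80.8% to 84.0% and a long non-coding RNA for 15.6% to 18.3% of the placed regions. The gene that the authors assigned as nearest was the intron's own gene for 74.5% to 77.2% of all first intron regions, so genes are named below by the assignment, with the host where it differs.

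First intron regions were shorter and weaker than promoter regions, by more for RPB1 than for pSer2. Their median length was 312 bp and 295 bp for RPB1 and 314 bp and 323 bp for pSer2 (WT and KO), where promoter regions had 895 bp and 769 bp, and 386 bp and 387 bp. Median fold enrichment over input at the summit was 4.70 in WT and 4.75 in KO for RPB1, where promoter regions reached 11.9 and 9.89. For pSer2 it was 3.46 and 3.54, against 3.87 and 4.02 in promoter regions. Later introns were close to these values, with 4.59 and 4.75 for RPB1 and 3.545 and 3.595 for pSer2. Fold enrichment hardly varied with the distance from the start: in RPB1 WT the median lay between 4.63 and 4.77 in every distance bin from 1 kb to beyond 50 kb.

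The 5 genes with the most first intron regions in each RPB1 list were not among the 5 of either pSer2 list. GPC3, which encodes the oncofetal heparan sulfate proteoglycan glypican-3, had the most RPB1 regions in WT, 27, and, level with FNDC3B, in KO, 23, all in 1 intron of 32.1 kb (chrX:133953212-133985274, minus strand). Those regions covered 43.1% of the intron in WT and 40.0% in KO, with median fold enrichments of 5.35 and 5.29. The pSer2 lists held no first intron region at GPC3. That intron was nevertheless under pSer2 regions: those of the promoter class, up to 89.6 kb long in WT and 51.2 kb in KO, covered 100% of the same intron. HNRNPC, which encodes a heterogeneous nuclear ribonucleoprotein, showed the same arrangement, with 21 RPB1 regions in each genotype, no pSer2 first intron region, and 97.95% of its 35.1 kb intron in WT and 97.98% in KO under pSer2 regions of other classes. A region has 1 class, and a long one that touches the start is counted at the promoter.

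At RELN and FNDC3B long pSer2 regions were of the first intron class. RELN, the gene of the secreted matrix glycoprotein reelin, had 21 RPB1 regions in WT and 20 in KO in its 71.9 kb intron. Its pSer2 first intron regions numbered 21 in WT and 40 in KO but covered nearly the same share of the intron, 87.9% and 86.0%, with a median fold enrichment of 6.62 in WT and 4.58 in KO. The larger number in KO thus went with shorter regions, and pSer2 regions of any class covered 94.7% of the intron in WT and 86.95% in KO. At FNDC3B, a membrane protein gene with fibronectin domains, RPB1 regions numbered 14 in WT and 23 in KO, and pSer2 regions 6 and 8, covering 79.1% and 78.7% of 72.7 kb, while pSer2 regions of any class covered 97.1% and 97.2%. ACSL4, an acyl-CoA synthetase for arachidonate, had 22 RPB1 regions in WT and 20 in KO. In its longer first intron pSer2 first intron regions covered 4.255% in WT and 76.45% in KO, whereas pSer2 regions of any class covered 99.2% and 95.1%.

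**Figure D1:**
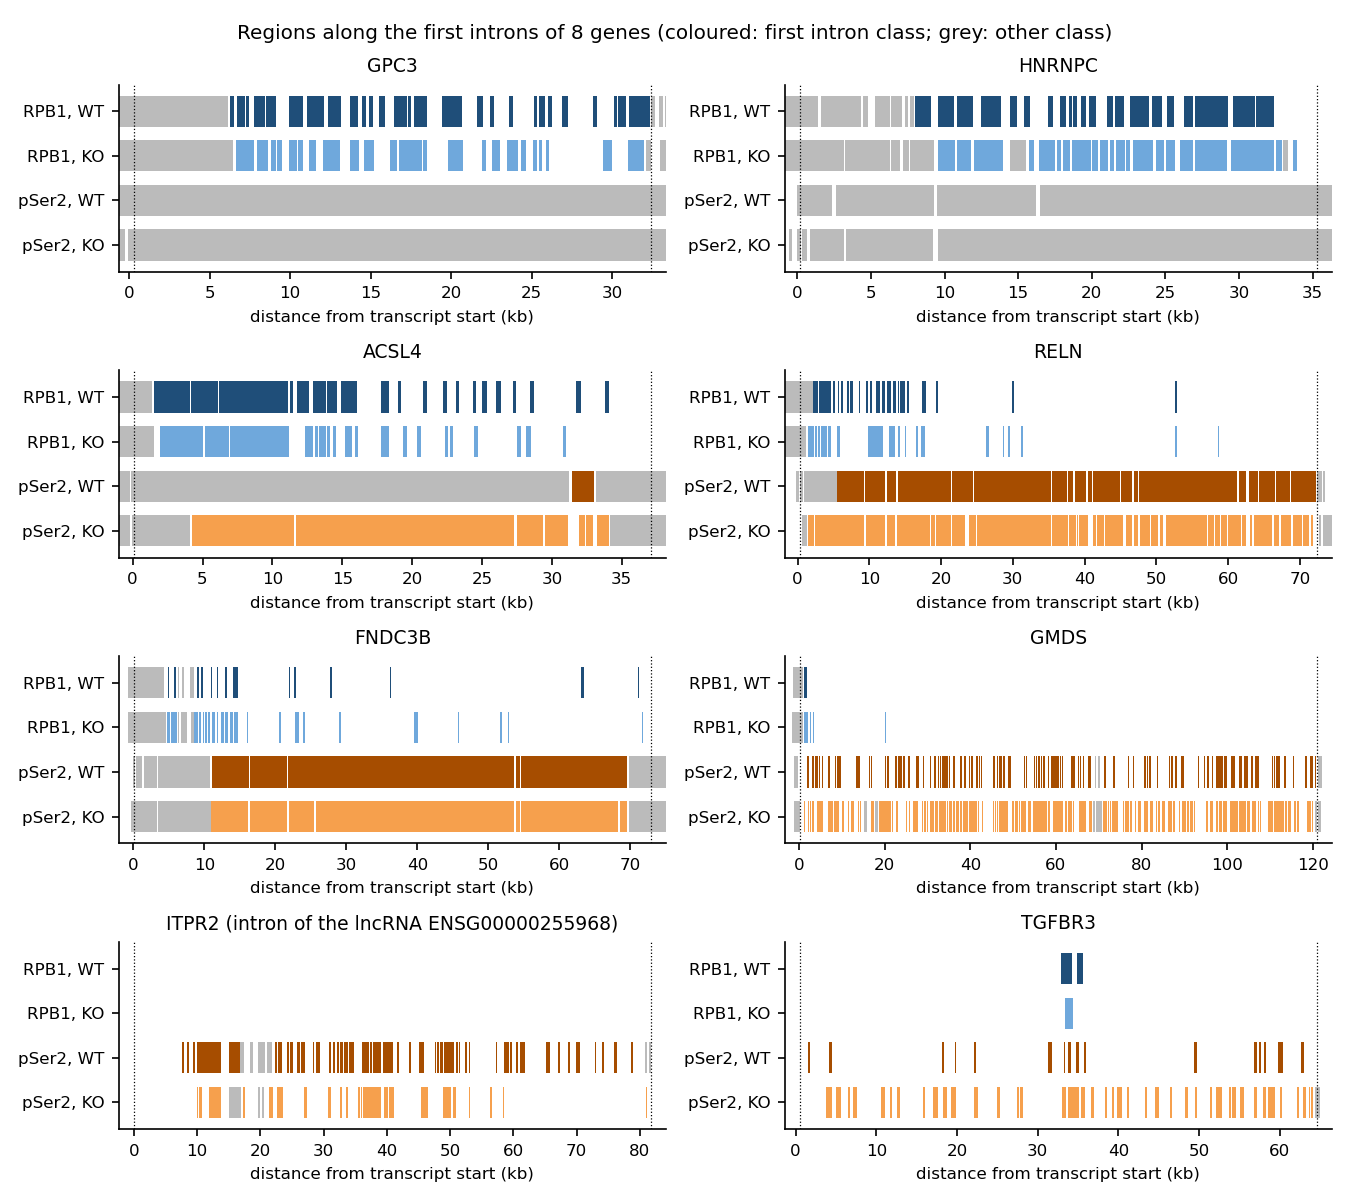
Regions along the first introns of 8 of the genes with most first intron regions, drawn against distance from the transcript start in kb, with 1 row per list; coloured bars are first intron regions, grey bars are regions of other classes and dotted lines mark the ends of the intron. GPC3 and HNRNPC are covered by grey pSer2 bars throughout, RELN and FNDC3B mostly by coloured ones, and at ITPR2 and TGFBR3 the number of pSer2 bars differs between WT and KO.

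Other pSer2-rich introns carried many separate short regions. GMDS, the first enzyme of GDP-fucose synthesis, had 99 pSer2 first intron regions in WT and 111 in KO, with 1 and 4 for RPB1. In its 120.6 kb intron pSer2 first intron regions covered 33.45% in WT and 55.2% in KO. ZNRF3, a ubiquitin ligase that removes Wnt receptors, had 93 in WT and 90 in KO, covering 42.7% and 44.95% of 103 kb. SPATS2L had 55 and 59. None of these 3 genes had more than 7 RPB1 first intron regions in a list. SEPTIN9, a cytoskeletal GTP-binding protein, had 59 in WT and 38 in KO. BCOR, a transcriptional corepressor, was lower in KO under both antibodies, with 17 and 9 RPB1 regions and 14 and 6 pSer2 regions. BCL2L1-AS1 (listed as ABALON), a non-coding RNA antisense to an apoptosis regulator, had 16 and 21 RPB1 regions and 16 and 14 pSer2 regions.

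Larger differences in number between the genotypes were seen at 3 of the genes named by the fixed rule. ITPR2, an inositol trisphosphate receptor of the endoplasmic reticulum, had 78 pSer2 first intron regions in WT and 45 in KO. In WT 49 of them lay in the 81.65 kb first intron of the non-coding RNA ENSG00000255968, where pSer2 regions of any class covered 38.4% in WT and 21.2% in KO, and no RPB1 region was listed. SOX5, a developmental transcription factor, had 57 in WT and 15 in KO, and over the 101.3 kb they span the covered share was 21.9% in WT and 4.57% in KO. Both genes lie on the short arm of chromosome 12, where pSer2 first intron regions numbered 249 in WT and 153 in KO, a ratio of 0.6145 against 0.757 over the genome. All pSer2 regions of that arm had a ratio of 0.653, against 0.821 on the long arm. For RPB1 the arm held 46 first intron regions in WT and 37 in KO (0.804), and all its RPB1 regions had a ratio of 0.967, against 0.904 over the genome. TGFBR3, the betaglycan coreceptor for TGF-β, was the opposite case, 18 regions in WT against 49 in KO, and 7.49% against 26.4% of its 64 kb intron covered. It lies on 1p, where pSer2 first intron regions numbered 915 in WT and 563 in KO (0.615). The part of DNA copy number or other properties of these arms in the values was not tested.

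Most genes carried few regions. In the RPB1 lists, 55.5% of 2431 genes in WT and 58.6% of 2138 genes in KO had exactly 1 first intron region. For pSer2 these shares were 41.0% of 3281 genes and 40.9% of 2571 genes, and 59 genes in WT and 48 in KO had 20 or more. Genes with an RPB1 first intron region in both genotypes numbered 1524, which was 62.7% of the WT genes and 71.3% of the KO genes. For pSer2 they numbered 2089, 63.7% of the WT and 81.2% of the KO genes.

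To compare first introns with later introns, regions were counted per Mb of intron beyond 3 kb of any GENCODE transcript start. In these bases RPB1 regions were denser in first introns, with 22.3 per Mb against 13.35 in WT (a ratio of 1.67) and 17.9 against 11.8 in KO (1.52). For pSer2 the order was the opposite, with 71.9 against 81.3 per Mb in WT (0.885) and 54.3 against 61.9 in KO (0.878). By the count used here, the RPB1 order turned round within bins of distance. From 5 to 10 kb after a start, RPB1 regions had 48.4 per Mb in first introns and 72.2 in later introns of WT cells, and 38.5 against 69.1 in KO cells. From 20 to 50 kb the RPB1 values were 12.1 and 15.3 in WT and 9.34 and 13.8 in KO. In each of the 6 distance bins and in all 4 lists, first introns were the less dense by this count. First intron bases lay nearer to starts: beyond 100 kb were 12.56 of 109.6 Mb of them, against 129.7 of 289.2 Mb of later intron bases. Bases in the first intron of any transcript used were counted as first intron, and later intron bases were only those outside them. Regions in first intron bases that were annotated to a later intron or another class were left out. Leaving them out lowers the first intron values by an amount that was not measured. Whether the order within bins depends on it was not tested.

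**Figure D2:**
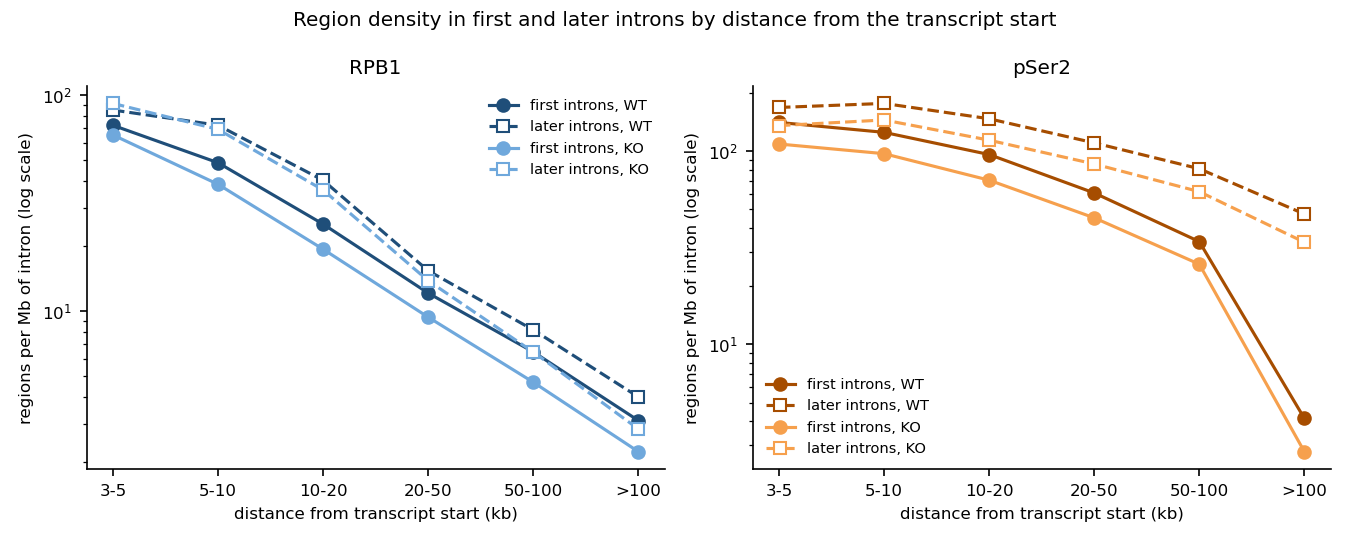
Regions per Mb of intron (log scale) against distance from the transcript start in kb, for first introns (filled symbols) and later introns (open symbols), RPB1 on the left and pSer2 on the right, WT dark and KO light. First introns lie below later introns of the same library in every bin, from 72.1 against 84.9 per Mb at 3 to 5 kb to 3.10 against 3.99 beyond 100 kb for RPB1 in WT.

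Up to 50 kb the fall with distance was steeper for RPB1 than for pSer2. From the bin at 3 to 5 kb to the bin at 20 to 50 kb, first intron density fell from 72.1 to 12.1 per Mb for RPB1 in WT and from 65.1 to 9.34 in KO. For pSer2 it fell from 140.4 to 60.7 per Mb in WT and from 109 to 45.1 in KO. Beyond 100 kb this order turned, as first intron density was down to 3.10 and 2.23 per Mb for RPB1 and to 4.14 and 2.79 for pSer2 (WT and KO). For pSer2 that bin stood far below later introns, which had 47.2 and 33.7 at that distance. First intron densities count regions of the first intron class only. Over all bases of the first introns holding such a region, these regions covered 1.95% and 1.53% for RPB1 (WT and KO). For pSer2 they covered 4.92% and 3.84%. Regions of any class covered 6.16% and 5.155% for RPB1 and 8.98% and 6.98% for pSer2. The introns compared were those of transcripts named for a region in any of their introns, first or later, in any list. Each such transcript holds an intron region by construction, but its first intron need not hold one. An alternative added after the data were seen read the same profile from 1 canonical transcript per protein-coding gene. It kept first introns below later ones in all bins.

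Overlap between the antibodies depended on the side from which it was read. Of the RPB1 first intron regions, 53.6% in WT (52.2 to 55.0) and 54.1% in KO (52.6 to 55.6) were overlapped by a pSer2 region of the same cells. Over all RPB1 regions it was 58.9% and 58.2%, and in later introns 64.1% and 65.2%. Of the pSer2 first intron regions, only 18.5% in WT (17.8 to 19.2) and 19.9% in KO (19.1 to 20.7) were overlapped by an RPB1 region, against 24.2% and 26.1% of all pSer2 regions and 7.74% and 8.83% in later introns. Most of the overlapping partners were first intron regions themselves: 76.5% of those over RPB1 regions in WT, with 13.1% in the promoter class at a median length of 5.12 kb.

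Along the intron the overlap of RPB1 regions rose and then fell, while that of pSer2 regions fell from 1 kb on. RPB1 regions 1 to 2 kb from the start were overlapped by pSer2 in 36.5% of cases in WT and 28.5% in KO. That share was 64.8% and 68.2% at 10 to 20 kb, and 31.0% and 37.3% beyond 50 kb. The pSer2 regions were overlapped by RPB1 in 48.5% in WT and 49.3% in KO at 1 to 2 kb, and in 7.57% and 7.27% beyond 50 kb. WT and KO intervals were apart only for RPB1 from 1 to 2 kb, where the WT interval was 32.9 to 40.2 and the KO interval 25.02 to 32.3. An RPB1 region deep in a first intron therefore had a pSer2 partner less often than one at intermediate distance.

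**Figure D3:**
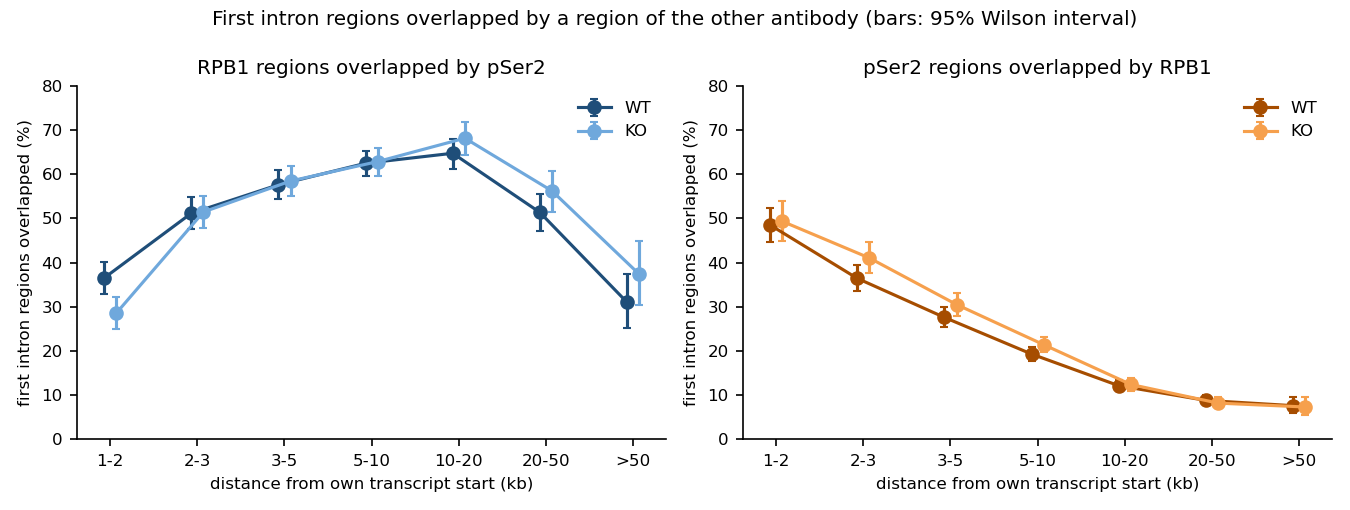
Share of first intron regions overlapped by a region of the other antibody in the same cells (%), against the distance from the start of the host transcript in kb, with 95% Wilson intervals; RPB1 regions on the left, pSer2 regions on the right, WT dark and KO light. The RPB1 curve peaks at 64.8% (WT) and 68.2% (KO) in the bin from 10 to 20 kb, and the pSer2 curve falls from 48.5% to 7.57% in WT.

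The strongest RPB1 regions lay 7.30 to 174 kb into first introns, and pSer2 fold enrichment at them was lower or absent. At HIVEP2, a zinc finger transcription factor gene, the region chr6:142926352-142927509 lay 18.1 kb from the start with RPB1 fold enrichments of 58.7 in WT and 53.8 in KO, against pSer2 values of 3.08 and 4.70. In TEX14, a gene known for its role at germ cell bridges, chr17:58658498-58659777 had 50.6 in WT and 64.7 in KO for RPB1 and 8.13 and 12.7 for pSer2. It covers the small non-coding gene ENSG00000290039, whose start is 207 bp from the summit. At CROCC, which encodes the ciliary rootlet protein, chr1:16913675-16914723 had 48.6 in WT and 19.0 in KO, with no pSer2 region in either genotype. The regions at THAP4, a gene of the THAP zinc finger family, had 50.3 and 32.6. A region about 23.9 kb from the start of YY1, inside a first intron of the non-coding RNA ENSG00000258982, had 56.2 and 35.1. Of these 5 WT regions, 4 were lower in KO and TEX14 was higher. In the KO list the third strongest region was chr1:146387176-146387790, with 33.1 in WT and 39.6 in KO. It was assigned to the U1 small nuclear RNA gene RNU1-1 at a distance of 10.4 kb and covers the non-coding gene ENSG00000287978, whose start is 351 bp from the summit.

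Among pSer2 regions the highest values were lower. SLC39A14, a zinc and iron transporter of the liver, led in WT with 17.0 and had 11.7 in KO, while an adjacent region in the same intron had 13.9 in WT and, within a longer region of the 5′ UTR class, 16.0 in KO. KLF3 (assigned to KLF3-AS1), a zinc finger transcription factor, had 15.3 in WT and 10.4 in KO. RPS6KA3, a growth factor-activated ribosomal S6 kinase, had 14.6 in WT and 7.40 in KO over a region of 7.64 kb. The order was the other way at HS6ST1, a heparan sulfate sulfotransferase, with 9.385 in WT and 16.6 in KO. A region in the first intron of CROCC (chr1:16905027-16905647), which covers the non-coding gene ENSG00000290122 and was assigned to RNU1-1 at 9.05 kb, had the highest pSer2 value of the KO list, 17.2, against 13.0 in WT, and RPB1 values of 54.6 in WT and 57.6 in KO.

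Numbers of first intron regions were lower in SHP-1 KO than in WT cells under both antibodies. The KO to WT ratio was 0.850 for RPB1, against 0.904 for all RPB1 regions and 0.960 for promoter regions. For pSer2 it was 0.757, against 0.789 for all and 0.830 for promoter regions. In bases covered the ratios were 0.784 for RPB1 and 0.776 for pSer2. Later introns had ratios of 0.901 for RPB1 and 0.769 for pSer2 in numbers, and of 0.842 and 0.7955 in bases covered. Depth was not available to adjust these numbers.

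Sharing between the genotypes was lower for first intron regions than for all regions. In the RPB1 lists, 54.6% of the WT first intron regions (53.3 to 56.0) had no overlapping KO region, with a background of 38.1% over all WT regions, and 40.9% of the KO ones (39.4 to 42.4) had no WT region, with a background of 25.1%. For pSer2, 57.1% of the WT regions (56.2 to 58.0) and 38.2% of the KO regions (37.3 to 39.2) had none, against backgrounds of 47.8% and 30.1%. Later introns gave 54.4%, 45.1%, 57.0% and 40.8% in the order of the lists. In RPB1 WT the gap to all regions was smaller at matched strength and varied with it. Among RPB1 WT regions with a fold enrichment of 5 to 6, 51.8% of first intron and 50.9% of all regions were unshared, and from 6 to 8 it was 31.2% and 30.9%. Below 4 the shares were 70.3% (67.5 to 73.0) and 66.1% (64.9 to 67.3), and from 8 to 12 they were 15.0% (11.4 to 19.6) and 11.6% (10.6 to 12.7). In the RPB1 KO list the first intron regions stayed above all regions at the same strength, with 52.7% against 46.4% at 4 to 5 and 34.9% against 30.2% at 5 to 6, and later introns were higher still (55.8% and 41.4%). In the pSer2 lists first intron regions with 3.5 to 4 were unshared in 62.7% against 57.3% in WT and in 40.85% against 37.5% in KO. With distance from the start, the unshared share in RPB1 WT lay between 52.9% and 57.7% in each bin beyond 1 kb and in RPB1 KO between 37.9% and 43.8%. In pSer2 WT it lay between 54.3% and 61.35%, and in pSer2 KO it was 31.7% (28.4 to 35.1) at 2 to 3 kb and 46.9% (43.15 to 50.7) beyond 50 kb.

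**Figure D4:**
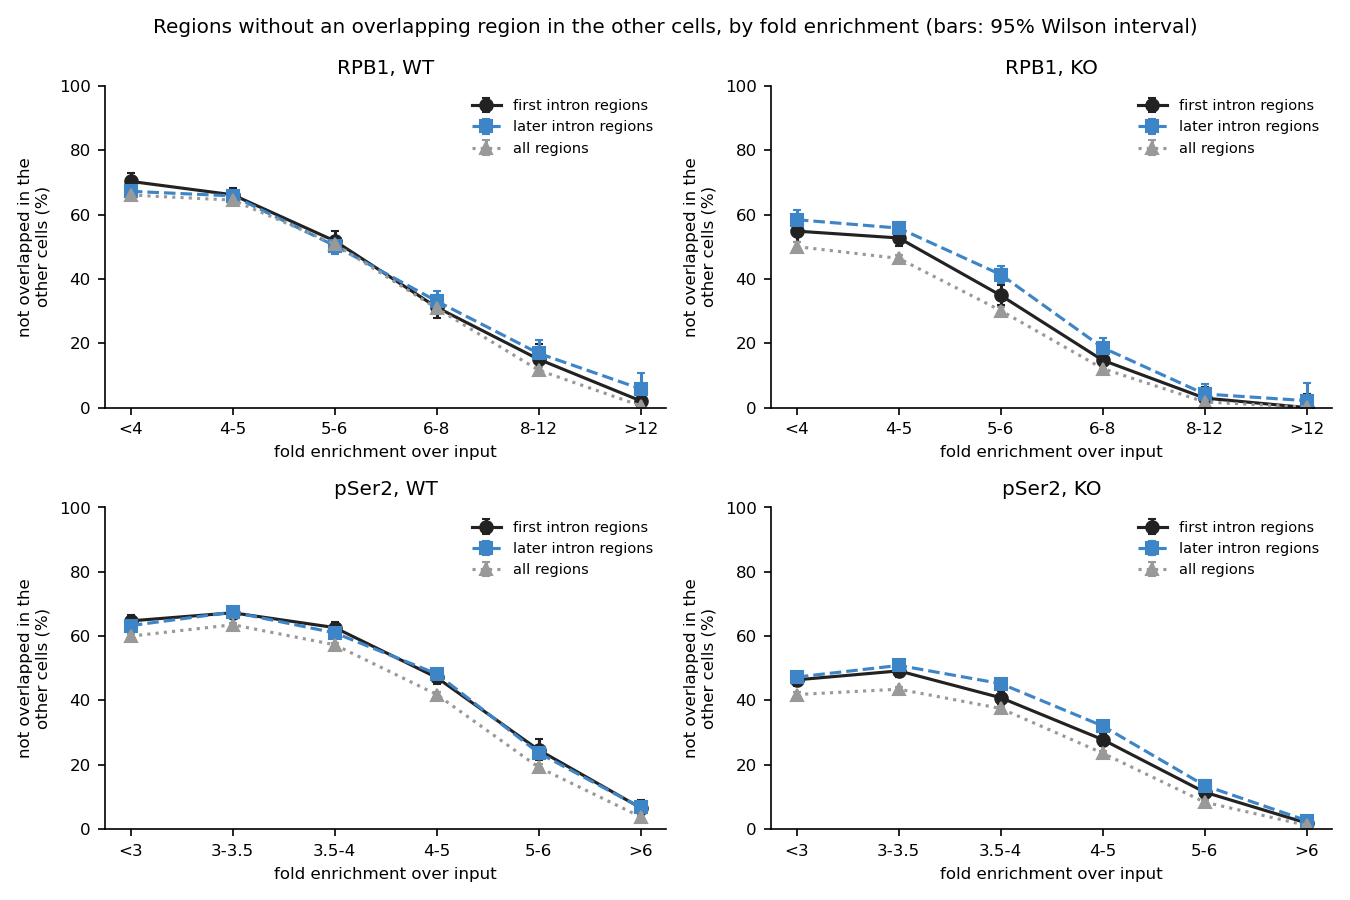
Share of regions without an overlapping region in the other cells (%), against fold enrichment over input, for first intron, later intron and all regions of each list, with 95% Wilson intervals. The first intron curve for RPB1 in WT falls from 70.3% below a fold enrichment of 4 to 2.11% above 12, and that of all regions from 66.1% to 0.587%.

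Strong first intron regions without a counterpart were few. Of the 142 RPB1 WT first intron regions above a fold enrichment of 12, 2.11% (0.721 to 6.03) were unshared, against 0.587% (0.4635 to 0.744) of all RPB1 WT regions of that strength. The strongest of the unshared WT regions was at ZBTB7C, a zinc finger gene, with 20.0, followed by CCDC144NL (13.7), SMPDL3A, a sphingomyelinase-like phosphodiesterase (12.1), a region in the first intron of NINJ2 (12.0) and LINC00523 (11.9). At CCDC144NL, SMPDL3A and NINJ2 the WT pSer2 list also had a region, with 6.33, 3.69 and 4.36, and the KO pSer2 list had none. In the RPB1 KO list the strongest unshared region was at PRDM16, a regulator of brown fat identity, with 11.08 (chr1:3070542-3071918, 1.74 kb from the start). It was followed by MOCOS, a molybdenum cofactor sulfurase (9.08), LINC00476 (8.66), DNAAF5 (8.44) and SLC33A1 (8.10). MOCOS, DNAAF5 and SLC33A1 had pSer2 regions in both genotypes. In the pSer2 lists UBE2D2, a ubiquitin-conjugating enzyme, held 2 of the 5 strongest WT regions without a KO counterpart, with 10.7 and 8.16, and RPB1 regions of 5.49 and 6.51 in WT with none in KO. FBXO17 (9.15), MKRN3 (7.88) and RHEX (7.88) made up the rest. TPD52 (7.91), CENPT (6.97), YWHAG (6.715), PAXIP1-AS2 (6.41) and USP22 (6.25) were the strongest in KO alone. TPD52 also had more RPB1 in KO, 12.0 against 3.03.

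Where a WT and a KO region were each other's largest overlap and both lay in first introns, they were taken as a pair. The 1895 RPB1 pairs had a median log2 fold enrichment difference (KO minus WT) of -0.085, with quartiles of -0.40 and 0.22. All 25692 RPB1 pairs had a median of -0.28, promoter pairs -0.40 and later intron pairs -0.064. First intron pairs at least 1.5 times higher in KO numbered 125 (6.60%, background 4.83%), and 300 were at least 1.5 times lower (15.8%, background 27.1%). Relative to the median of all RPB1 pairs, first intron pairs were 0.20 higher on the log2 scale, so their direction depends on the centring. A pair needs a region in both lists, so regions without a counterpart do not enter. Median fold enrichments were 5.36 in WT and 5.16 in KO for RPB1 first intron pairs, and 22.7 and 15.8 for promoter pairs. The part of this difference in strength in the class medians was not tested. The 4432 pSer2 pairs had a median of -0.031, where all 45941 pSer2 pairs had -0.037. Of them, 332 were at least 1.5 times higher in KO (7.49%, background 8.33%) and 479 lower (10.8%, background 11.8%).

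**Figure D5:**
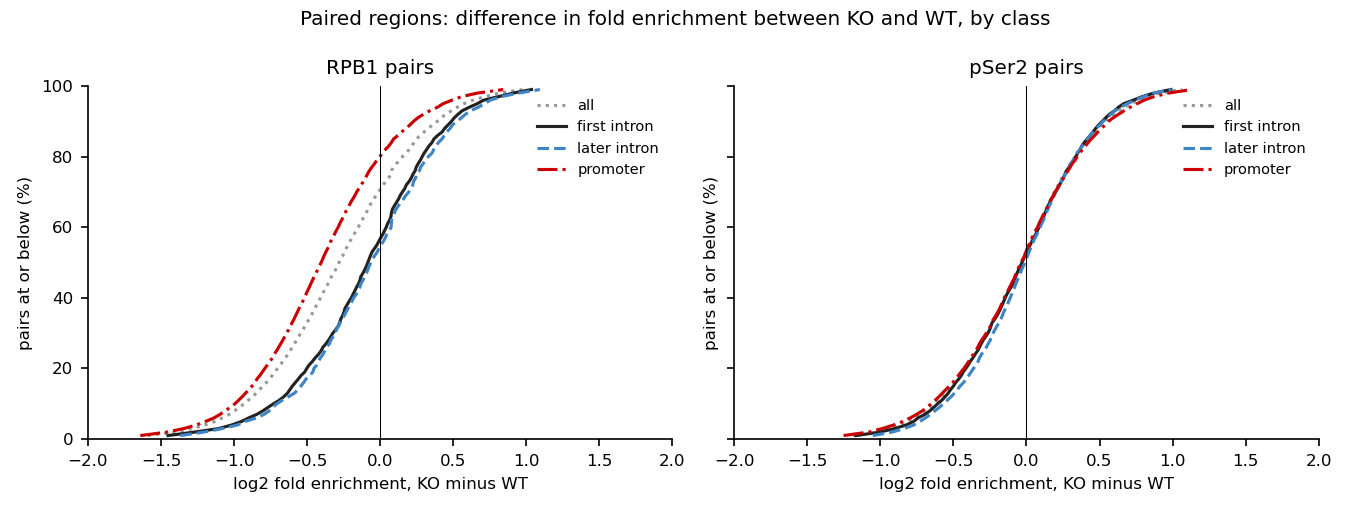
Cumulative share of paired regions (%) against the difference in log2 fold enrichment, KO minus WT, by class, for RPB1 (left) and pSer2 (right). RPB1 first intron and later intron pairs lie right of promoter pairs, with medians of -0.085, -0.064 and -0.40, and the pSer2 classes nearly coincide.

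The pairs that differed most, among those whose −log10 q-value reached 5 in both lists, were as follows. GDF15, a stress-induced hormone of the TGF-β family, had an RPB1 region (chr19:18379871-18380901) with 4.445 in WT and 11.6 in KO, a log2 difference of 1.39. BEAN1 (5.04 and 13.6) and TSPEAR-AS2 (5.09 and 14.45) differed by 1.43 and 1.504, and both had a pSer2 region in KO alone. CDC42, a small GTPase of cell polarity, had 5.25 and 12.8, a difference of 1.28, with no pSer2 region in either genotype. The TSPEAR-AS2 region was 370 bp long in WT and 2317 bp in KO. Lower in KO were LINC01135, with 28.6 in WT and 8.43 in KO (log2 difference -1.76), CCDC57, with 15.3 and 5.27 (-1.54), a TBC1D8 intron near CNOT11, with 11.09 and 3.895 (-1.51), and SELENOP, the hepatic selenium transport protein, with 11.35 and 4.06 (-1.48). At SELENOP a pSer2 region with 4.00 was listed in WT and none in KO, the paired RPB1 region was 1420 bp long in WT and 493 bp in KO, and a further KO region with 6.78 overlapped the WT one.

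For pSer2, TNFRSF10B, the death receptor DR5, had 3.37 in WT and 9.20 in KO, a log2 difference of 1.45. At CNOT1, the scaffold of the CCR4-NOT deadenylase, the values were 2.61 and 6.67 (1.35), and in a non-coding RNA intron assigned to SSR1 they were 3.09 and 6.81 (1.14). In the other direction TAF15, an RNA-binding protein associated with TFIID, had 9.51 and 3.33 (-1.51), RELN 8.35 and 3.16 (-1.41), a TERF2IP intron near KARS 7.95 and 3.24 (-1.29) and a non-coding RNA intron near HIST1H1A 5.97 and 2.555 (-1.23). Further KO regions overlapped the WT regions at TAF15 (5.54) and near KARS (6.67). At the last site an RPB1 region of the exon class had 48.0 in WT and 27.15 in KO.

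Base composition placed first intron regions with later introns and apart from promoters. The median G and C content of the summit and 100 bases to each side was 50.75% in RPB1 WT and 48.8% in RPB1 KO, where later introns had 51.2% and 48.8% and promoters 64.7% and 64.2%. For pSer2 it was 42.3% and 41.8%, against 52.7% in the promoter class of both genotypes. The mean number of CpG dinucleotides was 3.98 and 3.49 for RPB1 and 2.01 and 1.90 for pSer2, against 14.1 in RPB1 promoter regions of both genotypes. RPB1 regions overlapped by pSer2 had fewer CpG than those without it, 3.29 against 4.78 in WT and 2.83 against 4.26 in KO. The RPB1 KO regions without a WT counterpart stood apart, at 46.3% G and C against 50.25% in the shared ones, and WT regions without a KO counterpart were at 50.75%. That difference was present in later introns as well (46.3% against 50.75% in KO) and in promoters (51.2% against 65.7%), and the part of the libraries' G and C preference in it was not tested.

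Motif content was read from 14 short motifs on both strands of the same windows. The motifs of liver factors were TGTTTAC for FOXA proteins, TTGCNNAA for CEBP proteins, CAAAGNNCA for HNF4 and GTTAATNAT for HNF1. Those of signal-dependent factors were TGANTCA for AP-1, TTCNNNGAA for STAT proteins, ACATTCC for TEAD proteins and TGACGTCA for CREB. Those common at promoters were GGGCGG for SP and KLF proteins, CCGGAAG for ETS proteins, GCGCATGC for NRF1 and TATAAA, the core of the TATA box. The remaining motifs were GGNGGCAG for CTCF and AATAAA, the polyadenylation signal. Matches to different motifs may overlap and were counted separately, and a match is a description of the letters only. GGGCGG was in 9.002% of RPB1 WT first intron windows (8.24 to 9.83) and 7.275% in KO, against 42.4% and 40.9% of promoter windows and 25.5% and 24.6% of all RPB1 windows. CCGGAAG was in 1.65% and 1.47%, against 7.48% and 7.81% of promoter windows. AT-rich motifs ran the other way: AATAAA was in 16.75% and 19.35% of first intron windows, 5.905% and 7.05% of promoter windows and 10.8% and 12.4% of all RPB1 windows. The FOXA, HNF4 and CEBP motifs were a little more frequent in RPB1 WT first intron windows than over all RPB1 WT windows. FOXA was at 2.504% against 1.585% in WT, HNF4 at 4.55% against 3.80% and CEBP at 7.29% against 5.36%, and later introns had 2.09%, 4.87% and 6.59%. In pSer2 WT windows FOXA was at 3.305% and in all pSer2 WT windows at 3.12%. The STAT motif was in 4.33% of RPB1 WT and 4.84% of RPB1 KO first intron windows, against 3.599% and 3.92% of all RPB1 windows. For pSer2 it was in 6.53% and 7.455%, against 6.31% and 6.53% of all pSer2 windows.

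Genes of the liver programme carried first intron regions in part. Of 30 liver transcription factor genes, 13 had one in at least 1 list: 7 in RPB1 WT, 11 in RPB1 KO, 12 in pSer2 WT and 8 in pSer2 KO. HNF4A, the nuclear receptor that sustains hepatocyte identity, had 13 pSer2 regions in WT and 7 in KO. NR1H4, the bile acid receptor FXR, had 20 and 12, and ONECUT1 had 12 and 6. FOXA3 differed little, with 3 and 4 RPB1 regions and 5 and 6 pSer2 regions. In this list pSer2 regions numbered 77 in WT and 51 in KO, and 54.5% of the WT and 11.8% of the KO ones were unshared, against backgrounds of 47.8% and 30.1% over all pSer2 regions and 57.1% and 38.2% over the first intron ones. Of 35 genes of secreted plasma proteins, 9 had a first intron region in any list, with 9 RPB1 regions in WT and 5 in KO. C3, the central complement component, had 2 and 3 RPB1 regions with top values of 12.3 and 8.22.

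Insulin and glucose genes were read in the same way, since SHP-1 is known as a regulator of insulin signalling. PCK1, the rate-limiting enzyme of gluconeogenesis, had no first intron region in any list. Regions of other classes assigned to it numbered 6 for RPB1 and 3 for pSer2 in WT, with none in KO. Of 37 gene symbols, 20 had one somewhere: 8, 9, 15 and 12 genes in RPB1 WT, RPB1 KO, pSer2 WT and pSer2 KO. IRS1, the insulin receptor substrate, had 14 pSer2 regions in WT and 6 in KO. SLC2A1, the basal glucose transporter, had 4 RPB1 regions in WT and 9 in KO and 7 and 4 for pSer2. FOXO1, a factor that activates gluconeogenic genes in fasting, had 1 pSer2 region in WT and 10 in KO. The KO regions were each weak (the highest was 3.76), and 9 of them had no WT counterpart. Of all pSer2 KO regions 30.1% had none, and of the first intron ones 38.2%. For RPB1, FOXO1 had 1 region in WT and none in KO. AKT1, the insulin-responsive kinase, had 4 RPB1 regions in WT and 1 in KO, none of which was overlapped in the other genotype. Over all RPB1 regions 38.1% in WT and 25.1% in KO were unshared, and over the first intron ones 54.6% and 40.9%. The insulin receptor gene INSR had 2 pSer2 regions in WT and none in KO. Over the list, 63.8% of 58 pSer2 regions in WT and 58.5% of 41 in KO were unshared. For RPB1 it was 57.9% of 19 and 52.4% of 21.

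Of 30 JAK and STAT pathway genes, 15 had a first intron region in any list. IL6R, the interleukin-6 receptor, had 2 RPB1 regions in WT with a top value of 11.8 and 1 pSer2 region, and none in KO. STAT5B had 2 and 1 RPB1 regions and 6 and 2 pSer2 regions. SOCS6, a feedback adaptor, had 5 pSer2 regions in WT and 11 in KO, and IL6ST, the shared signalling receptor gp130, had 8 in each. Over the list, 71.4% of 28 pSer2 regions in WT and 65.4% of 26 in KO were unshared, against backgrounds of 47.8% and 30.1% over all pSer2 regions and 57.1% and 38.2% over the first intron ones. Of the 17 unshared KO regions, 9 lay at SOCS6 and 5 at IL6ST. High shares were not particular to this list. They were 63.8% and 58.5% for insulin and glucose genes and 65.1% and 57.35% for the cytoskeleton and Hippo genes below. Elongation genes had 55.1% and 43.6%, and secreted protein genes 80% of 10 and 50% of 6.

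Among 30 genes of transcription elongation, 21 had a first intron region in any list. ELL, an elongation factor, had 7 RPB1 regions in WT and 6 in KO and no pSer2 first intron region (5 pSer2 regions of other classes in WT and none in KO), whereas its relative ELL2 had 3 and none for RPB1 and 14 and 15 for pSer2. CDK12, a Ser2 kinase itself, had 5 pSer2 regions in each genotype, with top values of 6.79 in WT and 4.27 in KO. POLR2A, the gene of RPB1, had 3 pSer2 regions in WT and none in KO, all under a fold enrichment of 3.31. Of 30 cytoskeleton and Hippo pathway genes, 15 had one, and ACTN4, an actin crosslinker, held the most, 32 pSer2 regions in WT and 23 in KO. TNS3, a focal adhesion protein, had 18 and 9, while ACTN1 had 9 and 16. Over the elongation list pSer2 regions numbered 69 in WT and 55 in KO, and over the cytoskeleton list 86 and 68, ratios near that of all pSer2 first intron regions.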

How the data were processed

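ChIP-seq of RPB1 and pSer2 RPB1 was analysed from 4 deposited region lists, 1 library for each antibody and genotype. The 2 input libraries were not analysed here as samples of their own. The labels give no separate cultures or replicates, so no test was possible and differences carry counting error only. The submitters' processing notes name Trimmomatic, BWA and MACS2 without versions, and the lists use hg38. The authors deposited regions called per library, with each region's fold enrichment over input (a ratio) at the summit, its p-value and q-value as −log10, a score, the summit and an annotation of class, transcript and nearest gene. Regions within 1 kb of a gene start are of the promoter class in the deposited lists. Read depth is unknown, as no read counts were available. A further deposited table from the authors' window-based comparison holds numbers of windows up and down, p-values, adjusted p-values and directions, and was not used.

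First intron regions were selected by their annotation and placed in intron 1 of the named transcript with GENCODE release 44. Regions counted as shared when they overlapped by at least 1 bp, and as pairs when each was the other's largest overlap and both were of the class. Pairs differing at least 1.5 times were counted. Shares carry 95% Wilson intervals. Densities used intron bases beyond 3 kb of any transcript start. Motifs were searched on both strands of each summit with 100 bases to each side in hg38, and 50 bases to each side are printed. Named are the 5 genes with the most first intron regions per list, the 6 highest regions in WT and 3 in KO, the 5 highest without a counterpart per list, the 4 pairs with the largest and the 4 with the smallest log2 ratio at a −log10 q-value of at least 5, and members of 6 gene lists. Some of the genes and windows so chosen are not reported here. The regions and lists were chosen with earlier results of these data known. Alternatives were a reciprocal overlap of 50%, a −log10 q-value of at least 5, centred ratios, other intron sets, other windows, and leaving out chromosome arms. Python 3.11.15, pandas 2.3.3, numpy 2.4.6, scipy 1.17.1, pysam 0.24.0 and matplotlib 3.10.9 were used, and the functions were tested on simulated data.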

Additional observations from a re-analysis of the deposited data

Results flagged for a closer look

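At 5 of the genes named for having the most first intron regions, the number of first intron regions moved in opposite directions under the antibodies. Members of the gene lists were not screened in this way. The difference between the antibodies was not tested, since each group had 1 library. TGFBR3 had 31 more pSer2 regions in SHP-1 KO than in WT cells (18 and 49) and RPB1 numbers of 2 and 1. RELN had 19 more (21 and 40) with RPB1 numbers of 21 and 20, and ACSL4 had 7 more (3 and 10) with 22 and 20. In the other direction, the KO minus WT difference for pSer2 was -3 at ZNRF3 (93 and 90), where RPB1 numbers were 6 and 7, and -2 at BCL2L1-AS1, listed as ABALON (16 and 14), where they were 16 and 21. At RELN the bases covered by pSer2 first intron regions were 63.2 kb in WT and 61.8 kb in KO, and at TGFBR3 5.05 kb and 18.9 kb. In the longer first intron of ACSL4, pSer2 regions of any class covered 99.15% in WT and 95.06% in KO. The longest of them was of the promoter class in both genotypes.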

How the results depend on the processing

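Of 84 alternative values, 53 moved by more than their interval or range, 29 did not and 2 changed sign. Values are in the order RPB1 WT, RPB1 KO, pSer2 WT, pSer2 KO. With the −log10 q-value limited to 5 or more, first intron regions made up 8.51%, 7.55%, 10.1% and 9.43% of the lists, and with introns of the assigned gene only 8.15%, 7.74%, 9.25% and 8.89%. Overlap with the other cells was 22.2%, 26.2%, 19.7% and 26.4% with a reciprocal overlap of 50%, against 45.4%, 59.1%, 42.9% and 61.75%. It was 61.6%, 76.5%, 61.5% and 79.0% when the q-value limit applied to the first intron regions only. With the limit in both lists it was 64.55% for RPB1 KO and 41.8% for pSer2 WT, and without 1p 43.8% for pSer2 WT. Overlap with the other antibody was 13.95%, 14.3%, 5.61% and 6.52% with reciprocal overlap, and with the limit in both lists 47.35% and 49.0% for RPB1 and 19.35% for pSer2 WT. Centring on all pairs turned the median log2 ratios to 0.20 for RPB1 and 0.0061 for pSer2, and reciprocal pairs gave -0.011 for pSer2. The density ratio of first to later introns was 1.18, 1.10, 0.596 and 0.589 over all transcripts of protein-coding genes and 1.81, 1.64, 0.958 and 0.936 with the q-value limit. In alternatives chosen after seeing the data it was 1.97, 1.83, 0.933 and 0.929 beyond 1 kb of starts, and 0.861 and 0.851 for pSer2 with canonical transcripts. Beyond 1 kb of starts, the bin nearest to the start, up to 3 kb, gave 1.01, 0.910, 1.03 and 0.970, so the lower density of first introns at matched distance did not hold there in WT. GGGCGG was in 4.25%, 3.35%, 1.47% and 1.16% of windows with 50 bases to each side of the summit and 15.6%, 13.2%, 6.40% and 5.77% with 200 bases to each side, since a longer window holds more letters. Genes with a region at the q-value limit numbered 1518, 1234, 1882 and 1471.

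Leaving out the short arm of chromosome 12, also chosen after seeing the data, moved no share of overlap with the other cells beyond its interval. Read depth was unknown, and its part in the numbers and sharing of weak regions was not tested. No paired analysis was possible because each antibody and genotype had 1 library and the labels give no replicate numbers.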

Other observations

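Genes chosen after their values were seen showed large differences in the number of first intron regions. TGFBR2, the type II receptor of TGF-β, had 2 regions for RPB1 in WT against 13 in KO cells, with 1.38 kb and 7.04 kb covered. ZFX, an X-linked zinc finger gene, had 15 and 5, PIGZ, a mannosyltransferase of GPI anchors, 10 and 1, and CRK, an adaptor of tyrosine kinase signalling, 10 and 2. CNOT1, named above for a pSer2 pair, had 7 and 15. For pSer2, SHANK2 had 35 in WT and 8 in KO, ZHX2 43 and 12, and DNAJC3, a chaperone of the endoplasmic reticulum, 2 and 16. TRIM71 had 18 and 38 pSer2 regions, while the bases covered were 46.0 kb in WT and 38.3 kb in KO.

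RPB1 first intron regions beyond 10 kb from the start differed in base composition by the presence of pSer2. In WT cells the 681 without a pSer2 region had a median G and C content of 53.2% and held GGGCGG in 13.1% of windows (10.7 to 15.8), and the 837 with one had 50.25% and 7.53% (5.93 to 9.51).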
